A study of Mus musculus with 33 samples.

Results

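Cells carrying the messenger RNAs of 3 neutrophil granule proteins at once were picked out of mouse tissues that held biotin-tagged and untagged cells. A cell belonged to the set when it had at least 500 UMIs (unique transcript tags), at least 200 genes, at most 15% mitochondrial UMIs, and at least 5 UMIs for each of Elane, Mpo and Prtn3. The rule found 1552 such cells among 55366 kept cells of 32 samples, which is 2.80%. Bone gave 1189 of them, brain 299, liver 57 and lung 7. By sort, 621 came from biotin positive and 931 from biotin negative samples. They are called Elane Mpo Prtn3 cells below, and because these genes chose them, no test is made on Elane, Mpo or Prtn3.

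Neutrophils are made in the bone marrow from stem and progenitor cells by way of granulocyte-monocyte progenitors, promyelocytes and myelocytes. Promyelocytes fill the primary granules with myeloperoxidase and serine proteases, and the genes for these are switched off before the secondary granule genes, such as Ltf, Camp and Ngp, come on. Granulocyte-monocyte progenitors can also turn towards monocytes, a choice in which the transcription factors Irf8 and Klf4 act on the monocyte side and Gfi1 and Cebpe on the granulocyte side.

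The samples came from SAMENT, a niche labelling method in which tumour cells carry an enzyme that tags the cells around them with biotin. Mice were given an intracardiac injection, the substrate was left to act overnight, and dissociated bone (femur and tibia), brain, liver and lung were sorted by biotin into positive and negative cells, with 4 samples per tissue and sort. A further bone experiment, whose injection the labels call IIA without explanation, was a single pooled matrix holding 6 positive and 6 negative samples marked by hashtag antibodies. The mouse strain, age, sex and the injected cells are not given in the labels, nor is whether equal replicate numbers mark the same mouse, and marrow inside and outside a lesion is not separated.

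The 3 genes of the rule encode neutrophil elastase (Elane), myeloperoxidase (Mpo) and proteinase 3 (Prtn3), and the additional marker Ctsg encodes cathepsin G, another primary granule protease. In the GRCm38 build, Prtn3 lies at chr10:79874476-79883174 and Elane next to it at chr10:79886247-79888215, both on the plus strand. Mpo lies at chr11:87793581-87804413 on the plus strand and Ctsg at chr14:56099881-56102574 on the minus strand. The RefSeq promoters of all 4 genes (GRCm38.p6) held the letters AGGAAGT, of the type bound by ETS factors such as PU.1, within 250 bases before the start on the gene's own strand. The stretches are shown because these 4 genes define the cells, with the matching letters in capitals and each sequence 5′ to 3′ on the strand of its gene:
Elane, chr10:79886208-79886244, plus strand: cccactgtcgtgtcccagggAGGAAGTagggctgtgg
Mpo, chr11:87793541-87793577, plus strand: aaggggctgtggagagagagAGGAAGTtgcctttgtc
Prtn3, chr10:79879553-79879589, plus strand: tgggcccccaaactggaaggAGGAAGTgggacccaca
Ctsg, chr14:56102764-56102800, minus strand: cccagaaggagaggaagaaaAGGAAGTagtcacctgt
The first capital letter lay 84 bases before the RefSeq start in Elane, 223 in Mpo, 94 in Prtn3 and 206 in Ctsg. The Prtn3 stretch lies inside the gene interval given above, as that interval begins upstream of the RefSeq start used. Searched on both strands, the same letters were in 7.69% of 32851 promoters of this length. The letters were chosen after these promoters had been seen, so the match is a description of the sequences and of nothing more.

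The marker Ctsg, which the rule did not use, went with the label: 96.8% of the Elane Mpo Prtn3 cells had a Ctsg UMI and 86.3% had at least 5. Over the 14808 other kept bone cells, the mean CPM (share of UMIs) was 129-fold higher for Mpo, 107-fold for Elane, 101-fold for Ctsg and 32.8-fold for Prtn3. Among the genes that led after these were Ms4a3 (23.4-fold), a gene of granulocyte-monocyte progenitors, the granzyme-like protease Prss57 (19.1-fold) and the protease inhibitor Cst7 (21.4-fold). Fkbp11 (22.1-fold), of the secretory pathway, and Srm (14.1-fold), of polyamine synthesis, were also among them. These folds describe cells chosen by the rule and are not tested.

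The cells were deeply covered, with a median of 35660 UMIs against 5083 in the other kept cells, and 34 of 1552 had fewer than 10000. Of the 63 cells that just passed, with a lowest rule gene of exactly 5 UMIs, the medians were 17 UMIs for Elane, 5 for Mpo and 52 for Prtn3. The 69 cells that just missed, at 4 UMIs, had 17, 4 and 52. All members together had medians of 172.5, 78 and 215.5, so most lay far from the limit. Cells that should lack the gene also held some of it: by replicate number, 4.93% to 21.4% of B cells and 2.44% to 23.2% of T cells had an Elane UMI, with the highest shares in replicate 3. Median depths were 2308 to 3516 UMIs in these B cells and 2893 to 4259.5 in the T cells, and at most 4 of either type per replicate number passed the rule. The parts of free RNA and of doublets in these shares were not tested. Markers of other cells were rare in the set: 12 cells had at least 3 Cd79a UMIs (B cells), 24 had a Cd3e UMI (T cells) and 13 had at least 3 C1qa UMIs (macrophages). A doublet score marked 69 of them. Samples of the same replicate number shared 0 barcodes, and no barcode of the set occurred in more than 1 library.

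In bone, these cells made up a larger share of the biotin positive than of the biotin negative sort in each of the 4 replicate numbers, but the size of the gap ran from nothing to several fold. The share of kept cells in the positive samples 1 to 4 was 5.38% (Wilson 95% interval 4.47 to 6.45), 4.70% (3.56 to 6.17), 38.4% (34.6 to 42.3) and 18.6% (16.2 to 21.3). In the negative samples it was 1.11%, 4.67%, 9.57% and 7.05%. Positive samples 3 and 4 stood above all negative samples, whereas positive samples 1 and 2 lay within the negative range. The ratio of positive to negative with the same number was 4.83, 1.01, 4.01 and 2.64. Means were 16.8% ± 15.8 and 5.60% ± 3.60 (SD, n = 4 each), and the difference of 11.2 percentage points did not pass (two-sided exact permutation p = 0.257, and 0.724 after Benjamini-Hochberg adjustment over 4 tissues). Paired by number, the exact sign-flip p was 0.125, the smallest that 4 pairs can give. Without positive sample 3 the difference was 3.96 points. Intervals here cover counting error only, and a higher share of these cells and a lower share of the others in a sort cannot be told apart.

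**Figure D1:**
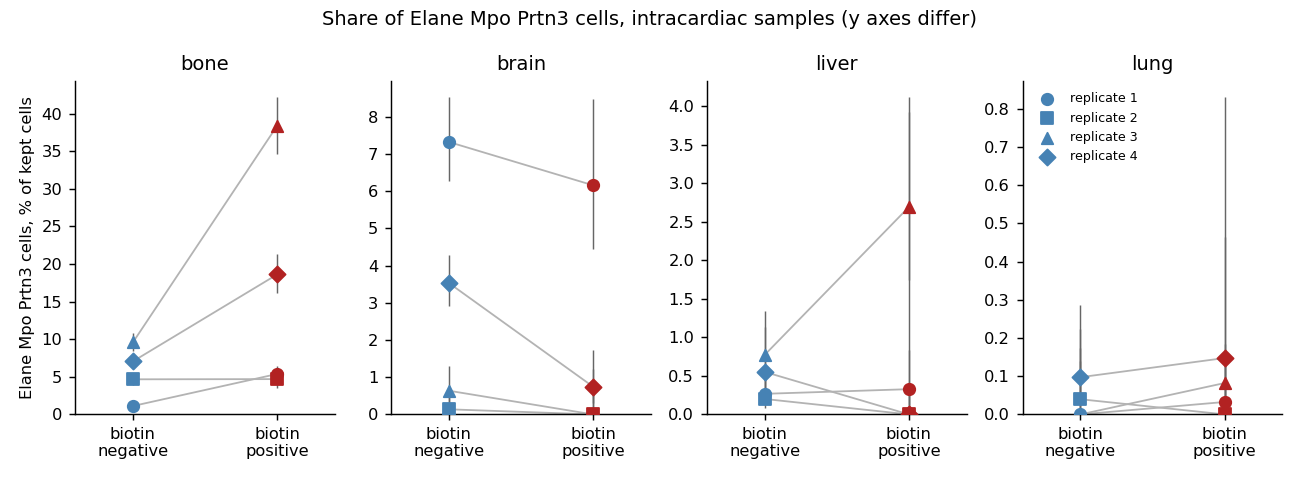
Share of Elane Mpo Prtn3 cells among kept cells (percent) in each intracardiac sample, negative and positive sort, 1 panel per tissue with its own y axis. Shapes stand for replicate numbers, lines join samples with the same number, and bars are Wilson 95% intervals. In bone the positive shares run from 4.70% to 38.4%, and in lung none exceeds 0.147%.

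Outside bone the cells were unevenly spread over samples. In brain the negative samples had 7.32%, 0.137%, 0.638% and 3.54%, and the positive ones 6.16%, 0%, 0% and 0.747%. Replicate 1 held 184 of the 299 brain cells (150 negative, 34 positive) and negative sample 4 another 101. The positive share was the lower one in 4 of 4 pairs, with a mean difference of -1.18 points (exact permutation p = 0.514, adjusted 0.724). Taken as 3 counts of the total, the 0 of 675 cells in positive sample 2 allows a share of up to 0.444% (Wilson 95% upper limit 0.566%), and that in positive sample 3 a share of up to 0.968% (1.22%).

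In liver the negative samples had 0.267%, 0.201%, 0.771% and 0.552% and the positive ones 0.328%, 0%, 2.69% and 0%, so that 20 of 24 positive liver cells came from sample 3. No direction was seen there (difference 0.307 points, exact permutation p = 0.943), and positive sample 4 had only 94 kept cells, where 0 allows up to 3.19% by the same count (Wilson 3.93%). Lung had 7 cells in 17926, at most 0.147% in any sample (difference 0.0313 points, exact permutation p = 0.543). Where the cells in brain and liver came from was not tested. Their own sample tag was the highest tag in 145 of 150 cells of brain negative sample 1, in 101 of 101 of brain negative sample 4 and in 34 of 34 of brain positive sample 1. In liver it was the highest in 20 of 20 cells of positive sample 3, in 12 of 12 of negative sample 3 and in 6 of 9 of negative sample 1, the lowest share of any sample.

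Within the negative sort alone, the mean share was higher in bone than in the other tissues, but not in replicate 1. The bone mean of 5.60% stood against 1.13% ± 2.18 (SD) over the 12 other samples, a difference of 4.47 points (two-sided exact permutation p = 0.00989 over 1820 assignments). Brain negative samples 1 and 4, at 7.32% and 3.54%, overlapped with bone. Leaving out 1 sample at a time gave 3.15 points (without bone negative sample 3) to 5.96. That test takes the 16 samples as independent. Within replicate numbers 1 to 4, bone minus the mean of the other tissues was -1.42, 4.54, 9.10 and 5.65 points, which did not pass (exact sign-flip p = 0.25, smallest possible 0.125). The positive minus negative difference itself was larger in bone, at 11.2 ± 12.7 points, than in the other tissues, at -0.281 ± 1.07 (SD, n = 4 and 12), a gap of 11.5 points (exact permutation p = 0.00330). Without replicate 3 of bone that gap was 5.57 points, and the p was at most 0.0132 with any 1 replicate of a tissue left out. Within replicate numbers the gap was 4.62, 0.153, 28.4 and 12.7 points, above 0 in 4 of 4 (exact sign-flip p = 0.125, the smallest possible), so it did not pass there.

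The IIA bone experiment, whose samples the rule did not use, showed the same direction in every sample. There the rule found 2435 of 22362 hashtag-assigned cells. The share ran from 6.39% to 62.7% with a median of 30.3% in the 6 positive samples, and from 1.92% to 5.35% with a median of 2.67% in the 6 negative samples. All positive samples lay above all negative ones. Means were 29.1% ± 20.9 and 3.02% ± 1.29 (SD, n = 6 each), a difference of 26.1 points (two-sided exact permutation p = 0.00216, the smallest that 924 assignments can give). Positive sample 5 alone held 1342 of the 2435 cells, and without it the difference was 19.4 points. Depth moved with the sort: the median UMIs of these cells were 11721 to 19174 in positive and 7612 to 10953 in negative samples. With every cell thinned to 2000 UMIs and at least 2 UMIs asked of each rule gene, the means were 35.1% and 5.58%.

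**Figure D2:**
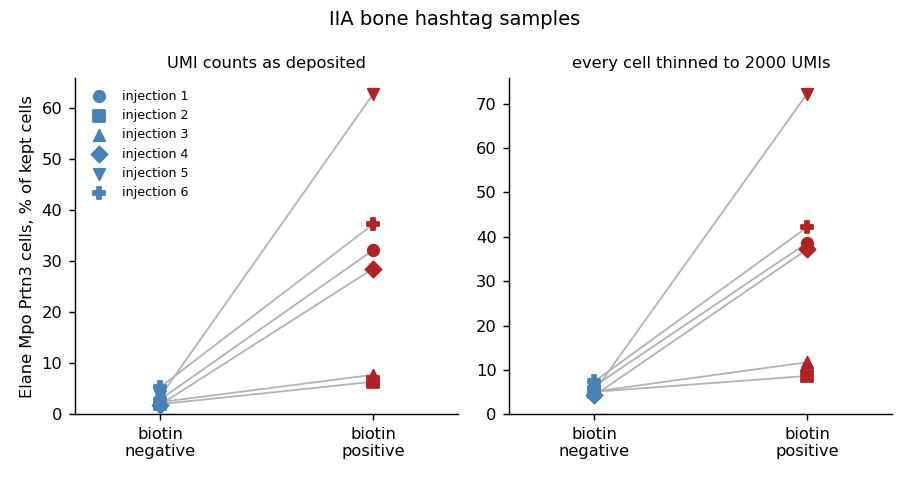
Share of cells passing the same rule (percent of kept cells) in the 6 negative and 6 positive IIA bone samples, as deposited and after thinning every cell to 2000 UMIs. Shapes stand for the injection numbers 1 to 6 and lines join equal numbers. The lowest positive sample (6.39%) lies above the highest negative one (5.35%).

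What the tagged and untagged cells expressed was compared in sums of UMIs over the cells of each sample, given as CPM (the count per 1e+06 UMIs of the sample's sum). In bone 4 positive and 4 negative samples entered, with 33 to 247 cells each. Median UMIs per cell were 31246 to 46453.5 in positive and 29215 to 38957 in negative samples. Of 10140 genes tested with edgeR's quasi-likelihood test, 93 passed at an FDR (adjusted p) under 0.05, or 0.917%, with 19 higher (0.187%) and 74 lower (0.73%) in the positive cells. The samples carried a replicate structure, and with the replicate number as a block 1214 genes passed, 473 higher (4.66%) and 741 lower (7.31%). The samples of the sorts did not overlap in CPM in 762 genes (7.51%). The count of 93 fell to 14 without positive sample 3, to 30 without positive sample 4 and to 49 without negative sample 2. Where both are given below, the first count is without the block.

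The genes that chose the cells were themselves higher in the positive cells, which is given as a description. Elane, Mpo, Prtn3 and Ctsg together took 2.29%, 2.33%, 2.88% and 2.72% of UMIs in the positive samples and 1.63%, 1.68%, 1.51% and 1.93% in the negative samples. Elane stood at 7475, 7685, 9854 and 9292 CPM in the positive and 5478, 5529, 4818 and 6281 CPM in the negative samples. The ranges of positive and negative samples did not overlap for either quantity.

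Other genes of the primary granule and of protease handling leaned higher in the positive cells, without passing in the unblocked fit. Ctsg had 3654, 3211, 4301 and 4326 CPM in the positive and 2249, 2283, 2200.1 and 3008 CPM in the negative samples, a log2 fold change of 0.63 (SE 0.17, edgeR FDR 0.0942, and 0.000253 with the block). All positive samples exceeded all negative ones. Nkg7, a membrane protein of cytotoxic granules that myeloid precursors also make, had 589, 522, 824 and 647 CPM against 382, 368, 368 and 434 (0.70, SE 0.15, FDR 0.0503, block 0.000647). Prss57 had 243, 213, 301 and 279 CPM against 150.0, 156, 143 and 191 (0.66, SE 0.16, FDR 0.0728, block 0.000937). Over the 12 genes of this list tested, 0 passed as higher and 1 as lower, with a median log2 fold change of 0.51 against 0.02 for all genes. With the block 9 were higher and 2 lower. The gene that fell was Ctsc, dipeptidyl peptidase I, which activates the granule proteases: 53.4, 54.0, 47.5 and 75.2 CPM against 323, 132, 142 and 138 (-1.63, SE 0.26, FDR 0.0128). Without positive sample 3 its FDR was 0.0600.

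The plainest difference in bone was a lower level of monocyte-side genes in the tagged cells. Of 12 genes on a list of monocyte precursor genes, 6 fell, 0 rose and the median log2 fold change was -1.49. With the block 11 fell. Irf8, which drives monocyte and dendritic cell fate, had 67.2, 50.7, 44.9 and 58.9 CPM in the positive samples and 233, 120.3, 165 and 124 CPM in the negative ones. Each negative sample was above each positive sample (log2 fold change -1.53, SE 0.19, edgeR FDR 0.00612). Klf4, a transcription factor of monocyte differentiation, had 29.3, 26.7, 21.1 and 27.8 CPM against 210.4, 79.3, 90.5 and 80.1 (-2.09, SE 0.26, FDR 0.00612). Negative sample 1 was far above the other negative samples in Klf4, and those were still above every positive one.

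Among surface and secreted molecules of the same list, Ccr2, the chemokine receptor by which monocytes leave the marrow, had 42.8, 57.2, 35.9 and 51.6 CPM in positive and 213, 125, 114 and 109 CPM in negative samples (-1.58, SE 0.21, FDR 0.00655). Ms4a6c, a membrane protein of monocytes, had 138, 142, 75.4 and 138 CPM against 548, 342, 291 and 257 (-1.54, SE 0.23, FDR 0.0102). In both genes negative sample 1 was the highest and no samples overlapped. F13a1, a coagulation factor subunit made by monocytes, had 155, 267, 158 and 163 CPM against 715, 464, 353 and 279.6 (-1.29, SE 0.24, FDR 0.0248). Csf1r, the receptor for macrophage colony-stimulating factor, was low throughout, with 15.2, 15.8, 10.3 and 7.92 CPM against 33.1, 25.5, 27.4 and 17.4 (-1.13, SE 0.22, FDR 0.0304). Irf8, Klf4, Ccr2 and Ms4a6c passed in all 17 alternatives run. F13a1 and Csf1r passed in 11 of 17: F13a1 was lost without positive samples 1, 3 or 4 or negative sample 2 (FDR up to 0.113) and Csf1r without positive samples 3 or 4 or negative samples 1, 2 or 3 (up to 0.143). Both were also lost in cells of 20000 to 50000 UMIs, where the depths of the sorts are closer, and F13a1 at a minimum of 3 UMIs per rule gene.

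On the mature monocyte list, which shares Ccr2, F13a1 and Csf1r with the one above, 4 of the 7 genes tested fell and 0 rose (median -1.29). Vcan, the proteoglycan versican of classical monocytes, had 4.88, 7.09, 5.87 and 6.63 CPM in positive and 51.6, 70.8, 36.9 and 17.6 CPM in negative samples (-2.84, SE 0.36, FDR 0.00612), with no overlap. The summed CPM of the 8 listed genes was 1343 to 2230 in positive and 1936 to 3697 in negative samples. None of the 8 was at 0 in all samples used. The part of monocytes captured together with these cells was not tested. With the top doublet scores left out 158 genes passed in place of 93, 92 of them shared.

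**Figure D3:**
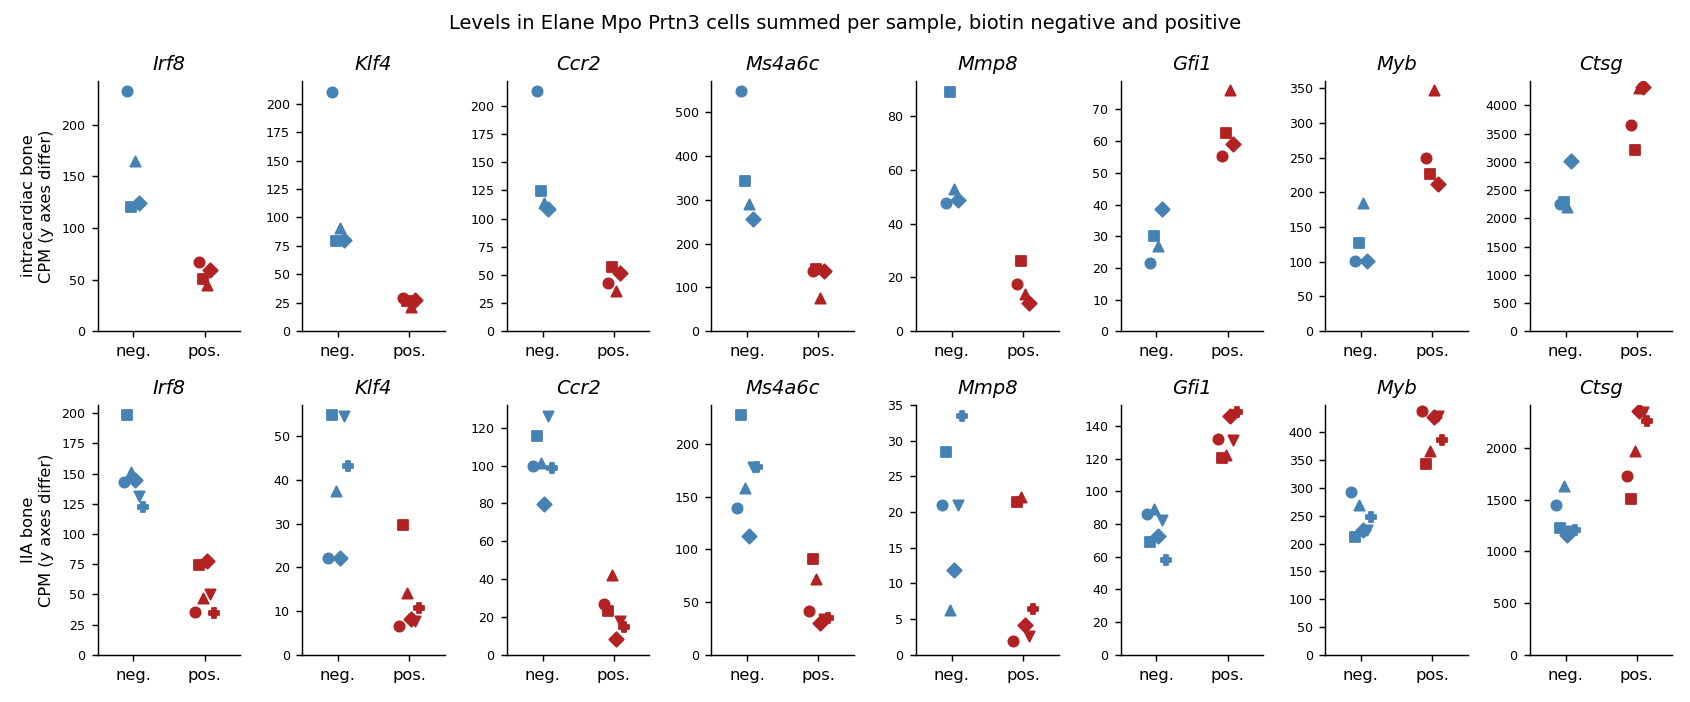
Level (CPM, linear y axes from 0 that differ) of 8 genes in Elane Mpo Prtn3 cells summed per sample, negative in blue and positive in red, for intracardiac bone (upper row) and IIA bone (lower row). Shapes stand for replicate numbers. In intracardiac bone the samples of the 2 sorts do not overlap for any of the 8 genes.

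Beyond the lists, the lowest genes in the positive bone cells by fold included Rnase2a, an eosinophil-type ribonuclease (-3.40, SE 0.59, edgeR FDR 0.0206), at 0.574, 1.09, 0.0890 and 0.432 CPM against 6.82, 3.81, 1.99 and 4.84. Irf5, a transcription factor of inflammatory macrophages, had 9.47, 4.91, 3.38 and 7.49 CPM against 71.1, 24.3, 17.8 and 19.7 (-2.23, FDR 0.0248). Rnase2a was near 0 in the positive samples, and Irf5 was highest in negative sample 1. Lgals3 (galectin 3; -2.01, FDR 0.0248) and the endosomal receptor Tlr13 (-1.98) were also lower. Several of these calls were fragile: Rnase2a passed in 11 of 14 alternatives (FDR up to 0.0964), Irf5 in 13 of 17 (up to 0.109), Lgals3 in 13 of 17 (up to 0.0715) and Tlr13 in 15 of 17 (up to 0.0659). All 4 were lost without positive sample 3 and without positive sample 4, in fits that had no block. With the block the FDR was 0.000674 for Rnase2a, 0.000133 for Irf5 and for Lgals3, and 0.000745 for Tlr13. The eosinophil list summed to 3.90 to 239.7 CPM in negative and 6.54 to 14.1 CPM in positive samples, with the 239.7 in negative sample 2. The part of these few other cells in the levels of Rnase2a was not tested.

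Among secondary granule and mature neutrophil genes, few passed without the block. Mmp8, neutrophil collagenase of the secondary granules, had 17.5, 26.2, 13.9 and 10.5 CPM in the positive and 47.7, 89.1, 53.0 and 48.6 CPM in the negative samples (-1.97, SE 0.27, FDR 0.00655), and was the only one of 14 secondary granule genes that passed (median -0.26; with the block 3 fell). At a minimum of 3 UMIs per rule gene Mmp8 did not pass (FDR 0.133). Camp, Ngp, Lcn2, S100a8 and S100a9 did not pass. Of 12 mature neutrophil genes 0 passed (median -0.46; with the block 0 higher and 4 lower).

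Without the block, genes of earlier progenitors and of the granulocyte side were higher in the positive cells in few cases. Gfi1, a repressor needed for neutrophil formation, had 55.4, 62.7, 76.2 and 59.2 CPM against 21.4, 30.02, 26.8 and 38.6 (1.02, SE 0.19, edgeR FDR 0.0248). Myb, a transcription factor of proliferating progenitors, had 249, 226, 348 and 212 CPM against 100.4, 128, 185 and 101 (0.96, SE 0.20, FDR 0.0434). Both separated the samples without overlap, which the rule for genes named by fold asked for. Both calls were fragile, though: leaving out 1 sample kept Gfi1 in 3 of 8 fits (FDR up to 0.105) and Myb in 1 of 8 (up to 0.171). Both were also lost in cells of 20000 to 50000 UMIs, and Myb at a minimum of 3 or of 10 UMIs per rule gene. Over all 17 alternatives Gfi1 passed in 11 (FDR up to 0.160) and Myb in 7. With the block the FDR was 0.000589 for Gfi1 and 0.000128 for Myb, and the fits with 1 sample left out had no block. Kit, the stem cell factor receptor, had 38.2, 34.9, 51.2 and 24.2 CPM against 16.6, 18.8, 26.2 and 13.7 and passed with the block alone (0.91, SE 0.23, FDR 0.0785, block 0.00033). Of the 10 stem and progenitor genes tested 1 rose (median 0.61), and with the block 3 rose. Cebpa (0.24), Cebpe (0.32) and Spi1 (-0.13), factors of the granulocyte and myeloid programme, did not pass.

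Among the highest genes by fold, Rhoj, a small GTPase better known from endothelium, had 10.0, 9.27, 16.3 and 10.4 CPM against 1.95, 5.48, 3.45 and 2.92 (1.65, SE 0.28, edgeR FDR 0.0182). Nedd4, a ubiquitin ligase, had 103, 93.2, 102 and 74.3 CPM against 38.0, 44.1, 52.2 and 51.0 (0.93, SE 0.15, FDR 0.0144). Per3, of the circadian clock, had 17.2, 14.7, 22.4 and 19.4 CPM against 9.74, 10.7, 7.04 and 9.18 (1.03, SE 0.19, FDR 0.0248). The sorts did not overlap in any of the 3 genes, which the rule that named them asked for. Each lost its call without positive sample 3 (FDR 0.0964, 0.0600 and 0.131) and in cells of 20000 to 50000 UMIs. Over 17 alternatives Rhoj passed in 14 (FDR up to 0.148), Nedd4 in 15 (up to 0.109) and Per3 in 13 (up to 0.131). With the block the FDR was 0.000692 for Rhoj, 0.000647 for Nedd4 and 0.00229 for Per3.

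Of 14 growth factor receptor and marrow retention genes (median -0.30) and of 10 macrophage genes (0.15), only Csf1r, which both lists hold, passed in bone; with the block 2 rose and 5 fell on the first list, and 1 rose and 4 fell on the other. Without the block 0 genes passed on 7 other lists of programmes. These were 16 S phase genes (median -0.35; with the block 9 fell), 16 genes of the G2 and M phases (0.16; block 3 rose, 1 fell), 14 of ribosome biogenesis (0.26; block 5 rose) and 16 of folding in the endoplasmic reticulum (0.13; block 2 rose). The others were 16 stress and immediate early genes (-0.64; block 1 rose, 11 fell), 15 inflammatory genes (-0.45; block 5 fell) and 10 interferon response genes (-0.10; block 1 rose, 2 fell). Marker sums of macrophages were 125 to 359 CPM in positive and 108 to 357 CPM in negative samples, and those of B cells 36.0 to 131 against 43.4 to 168 CPM. The T and NK cell list did not overlap, at 527 to 827 CPM in positive and 372 to 444 CPM in negative samples. That list holds Nkg7, and its 10 other genes summed to 3.11 to 11.5 against 4.25 to 10.7 CPM.

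**Figure D4:**
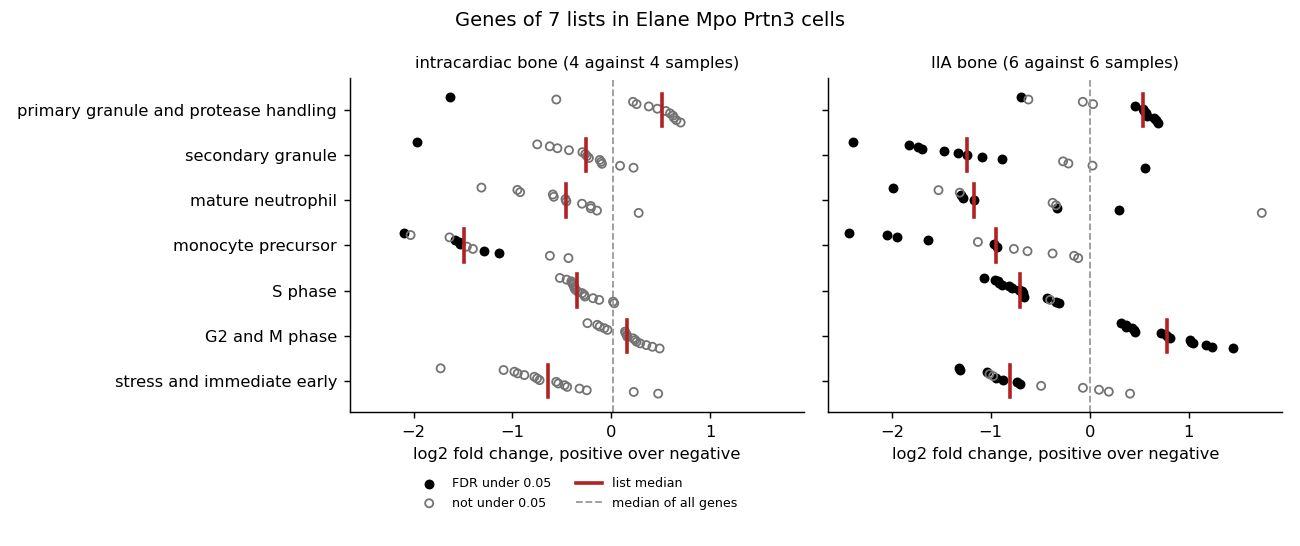
Log2 fold change, positive over negative, of each tested gene of 7 lists in intracardiac bone (4 against 4 samples) and IIA bone (6 against 6 samples). Filled points have an edgeR FDR under 0.05, the red bar is the list median and the dashed line the median of all genes. The monocyte precursor genes lie to the left in both panels, with medians of -1.49 and -0.95.

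In the IIA bone samples the same comparison, on separate samples and with chemistry that reads the 5′ end, gave 1666 of 8654 genes (19.3%), 787 higher (9.09%) and 879 lower (10.2%). The samples of the sorts did not overlap in 650 genes (7.51%). Of the 1666 genes 1641 could be tested in intracardiac bone, and 1422 of them had the same sign there. The share of equal signs over all genes is not given here. Of the 93 genes called in intracardiac bone 78 could be tested here, and all 78 had the same sign. Of these, 61 passed in the same direction (14 higher, 47 lower), 65.6% of the shorter list and 3.66% of the longer one, and 0 passed in the opposite direction. Restricting to cells of 8000 to 20000 UMIs, where the depths of the sorts are closer, gave 1775 genes, 1101 of them shared.

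The monocyte-side genes fell here too: 6 of 12 were lower and 0 higher (median -0.95, all genes 0.00). Irf8 ranged from 34.8 to 77.5 CPM with a median of 48.6 in the 6 positive samples and from 123 to 199 CPM with a median of 144 in the 6 negative ones (log2 fold change -1.63, SE 0.18, edgeR FDR 2.05e-05). Ccr2 ranged from 8.24 to 42.4 (median 20.4) against 79.9 to 126 (101) CPM (-2.44, SE 0.22, FDR 7.05e-06). Ms4a6c ranged from 30.5 to 90.5 (38.3) against 112 to 227 (168) CPM (-1.95, SE 0.23, FDR 2.61e-05). In these genes every negative sample was above every positive one. Klf4 fell with overlap, 6.62 to 29.6 (9.44) against 22.2 to 54.8 (40.3) CPM (-2.05, SE 0.30, FDR 0.000174). Vcan (-1.78, FDR 0.0932) and Ctsc (-0.62, FDR 0.30) did not pass.

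On the granulocyte side, 8 of 12 primary granule and protease handling genes rose, 6 of them also in the depth window, and 1 fell (median 0.54). Ctsg ranged from 1507 to 2355 CPM (median 2111) in positive and from 1161 to 1626 CPM (1215) in negative samples, with some overlap (0.54, SE 0.11, edgeR FDR 0.00226). In the depth window its FDR was 0.101. Nkg7 ranged from 768 to 1071 (858) against 379 to 623 (522) CPM (0.70, SE 0.11, FDR 0.000395), and Prss57 from 273 to 398 (351) against 174 to 244 (198) CPM (0.67, SE 0.11, FDR 0.000373), both without overlap. Gfi1 ranged from 120.1 to 148 (132) against 58.2 to 89.1 (77.3) CPM (0.74, SE 0.11, FDR 0.000181). Myb ranged from 342 to 438 (406) against 211 to 292 (236) CPM (0.62, SE 0.09, FDR 0.000121). The sorts did not overlap in Gfi1 or Myb. The gene of this list that fell was Slpi, a secreted inhibitor of elastase (-0.70, FDR 0.00588).

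Later granule genes were lower in the tagged IIA cells. Of 13 secondary granule genes 9 fell and 1 rose (median -1.24). Ngp, a secondary granule protein, ranged from 496 to 1059.8 CPM (median 828) in positive and 1504 to 3294 CPM (2483) in negative samples (-1.70, SE 0.18, edgeR FDR 1.77e-05). Lcn2, lipocalin 2, which withholds iron from bacteria, ranged from 156 to 322 (259) against 356 to 1091 (743) CPM (-1.74, SE 0.23, FDR 7.79e-05). S100a9, a subunit of calprotectin, ranged from 7606 to 12124 (10494) against 16559 to 29101 (23078) CPM (-1.30, SE 0.14, FDR 1.54e-05). None of the 3 overlapped between the sorts. Camp (-1.47, FDR 0.000302) and Ltf (-2.39) also fell. Of 11 mature neutrophil genes 5 fell and 1 rose (median -1.17). The negative cells were the shallower ones, and the part of free RNA in these levels was not tested. Ngp, Lcn2 and S100a9 also passed in the window of 8000 to 20000 UMIs.

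Cell cycle genes split by phase in the IIA cells. All 16 genes of the G2 and M phases rose (median 0.78), whereas 15 of 16 S phase genes fell (median -0.70). In the window of 8000 to 20000 UMIs 14 of the 16 and 13 of the 15 also passed (1 of the 15 was not tested there). Ube2c, a ubiquitin-conjugating enzyme of mitosis, ranged from 348 to 525 CPM (median 417) in positive and 89.1 to 216 CPM (136) in negative samples (1.45, SE 0.14, edgeR FDR 1.26e-05). Ccnb1, cyclin B1, ranged from 82.8 to 112 (91.7) against 32.8 to 41.4 (37.1) CPM (1.23, SE 0.11, FDR 5.03e-06). Pcna, the sliding clamp of DNA replication, ranged from 141 to 198 (160.4) against 216 to 319 (269) CPM (-0.82, SE 0.11, FDR 8.27e-05). Mcm5, of the replicative helicase, ranged from 98.1 to 138 (113) against 160.2 to 194 (179) CPM (-0.72, SE 0.10, FDR 0.000103). The sorts were apart in all 4 genes. In intracardiac bone Ube2c, Pcna and Mcm5 passed with the block alone, in the same directions (FDR 0.0474, 0.0168 and 0.0111).

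Genes of protein folding in the endoplasmic reticulum rose in 10 of 16 cases in the IIA cells, with 0 falling (median 0.35). In the window of 8000 to 20000 UMIs 6 of the 10 also passed, and Xbp1, Sdf2l1, Pdia6 and Manf did not; there Sdf2l1 had a log2 fold change of 0.07 in place of 0.42 and Manf 0.12 in place of 0.32. Hspa5, the chaperone BiP, ranged from 571 to 1036 CPM (median 669.8) against 324 to 508 CPM (449.6; 0.62, SE 0.13, edgeR FDR 0.00341). Calr, calreticulin, ranged from 973 to 1443 (1152) against 664 to 817 (756) CPM (0.57, SE 0.08, FDR 0.000178), and in intracardiac bone passed with the block alone (FDR 0.00128). Of 10 stem and progenitor genes 3 rose (Myb, Kit and Cdk6) and 3 fell (Cd34, Meis1 and Sox4). In the depth window the 3 that rose also passed, but of the 3 that fell only Cd34 did: Sox4 did not (FDR 0.199) and Meis1 was not tested there. Over all alternatives Sox4 passed in 10 of 17 and Meis1 in 13 of 16. Kit ranged from 104 to 145 (131) against 52.7 to 106 (75.1) CPM (0.65, SE 0.13, FDR 0.00151), and Cd34, a surface sialomucin of early progenitors, from 9.73 to 25.5 (13.2) against 23.4 to 48.1 (33.9) CPM (-1.11, SE 0.25, FDR 0.00414). Both overlapped slightly between the sorts.

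Stress and immediate early genes, which respond to handling of tissue as well as to signals, were lower in the tagged IIA cells. Of 14 tested 7 fell and 0 rose (median -0.81), and 5 of the 7 also passed in the depth window. Ier2 ranged from 61.8 to 83.9 CPM (median 75.5) in positive and from 113 to 160.3 CPM (143) in negative samples (-1.04, edgeR FDR 1.26e-05). Jun ranged from 44.0 to 75.7 (65.3) against 76.9 to 159 (99.97) CPM (-0.94, FDR 0.00113). Both were free of overlap, whereas Zfp36 (-1.33, FDR 0.000862) overlapped. Fos (-0.88, FDR 0.0463) passed in only 6 of 17 alternatives and not in the window. The part of handling or RNA quality in these and the other IIA differences was not tested. Of 14 growth factor receptor and marrow retention genes 4 rose and 5 fell, of 8 inflammatory genes 2 fell, and of 14 ribosome biogenesis genes 1 fell. Of all genes 9.09% rose and 10.2% fell. In the depth window 3 of the 4, 3 of the 5 (2 not tested there), 1 of the 2 and the 1 also passed.

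The genes furthest apart in the IIA cells included Lsp1, an actin-binding protein of leukocytes, at 13.2 to 34.6 CPM (median 19.2) in positive and 68.0 to 91.3 CPM (77.8) in negative samples (-2.24, SE 0.16, edgeR FDR 5.84e-07). Bach2, a transcription repressor of lymphoid and progenitor cells, ranged from 0.824 to 9.87 (8.20) against 16.4 to 41.4 (27.0) CPM (-2.22, SE 0.33, FDR 0.000197). Upwards, Cables1, a cyclin-dependent kinase adaptor, ranged from 33.1 to 97.0 (53.6) against 4.06 to 23.4 (17.8) CPM (1.69, SE 0.28, FDR 0.00048). Aspm, a spindle protein, ranged from 47.4 to 66.3 (56.9) against 14.5 to 23.4 (20.7) CPM (1.46, SE 0.14, FDR 9.36e-06). All 4 were free of overlap by the rule that named them. Markers of other cells were uneven over the IIA positive samples. The platelet gene Pf4 stood at 1126 and 515 CPM in positive samples 2 and 3 against 3.13 to 10.1 CPM in the negative samples. The same samples had macrophage sums of 2039 and 1470.3 CPM (171 to 362 in the other positive and 133 to 224 CPM in the negative samples) and dendritic cell sums of 676 and 909.8 CPM (negative 145 to 296 CPM). Positive sample 2 had an endothelial and stromal sum of 505 CPM (negative at most 60.0 CPM), and positive sample 3 an eosinophil sum of 1112 CPM (negative 7.23 to 471 CPM). The T and NK list was higher in every positive sample (770.1 to 1073 against 389 to 674 CPM), but without Nkg7 it summed to 0 to 2.33 CPM against 7.82 to 55.4 CPM. The B cell list summed to 53.0 to 241 CPM (median 75.9) in positive and to 110 to 327 CPM (211) in negative samples. The part of all these other cells in the results was not tested. With positive samples 2 and 3 left out, 2121 genes passed, of which 1568 were shared with the 1666.

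Per cell, Elane Mpo Prtn3 cells of bone were of mixed stage. After thinning to 2000 UMIs, of 1186 cells 46.4% had a UMI of Fcnb (ficolin B, a granule lectin of myelocytes), 45.3% had at least 3 UMIs over Ltf, Camp and Ngp, 44.7% had one of Mki67 (a proliferation marker), 13.4% one of Irf8, 5.06% one of Kit and 2.95% one of Cd34. Of 460 bone T cells thinned alike, 1.30% had Fcnb, 6.30% the sum over Ltf, Camp and Ngp, 2.61% Mki67, 6.52% Irf8, 0.652% Kit and 0% Cd34. Of 657 bone B cells 2.59% had Fcnb, 8.83% the sum, 4.57% Mki67 and 42.0% Irf8, which B cells make themselves. Dividing lymphocytes also make Mki67. Of 159 cells with an Irf8 UMI 9 (5.66%) also had Fcnb, against 46.4% of all, and 3 of the 537 cells with the Ltf, Camp and Ngp sum (0.559%) had Irf8. Irf8 cells carried Mki67 in 85 of 159 cases (53.5%). These shares describe cells pooled over samples and are not tested.

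By sort, Irf8 was seen in 9.26%, 10.4%, 6.75% and 8.18% of the positive bone cells and in 33.3%, 11.7%, 21.4% and 16.2% of the negative ones. Each negative sample was above each positive sample, and the positive shares were closer to the 6.52% of T cells than the negative ones were. The part of free RNA was not tested. The means of 8.65% ± 1.56 and 20.6% ± 9.34 (SD, n = 4 each) differed by -11.99 points (two-sided exact permutation p = 0.0286, the smallest 70 assignments can give, and 0.171 after adjustment over 6 readouts). Mki67 stood at 45.8% ± 4.46 and 46.7% ± 5.66 (exact permutation p = 0.743). Fcnb (48.5% ± 5.38 against 43.3% ± 9.74) and the Ltf, Camp and Ngp sum (45.8% ± 7.04 against 41.3% ± 13.9) also overlapped. Kit was 5.72% ± 2.17 against 3.34% ± 2.47 and Cd34 3.65% ± 1.46 against 2.21% ± 0.994. None passed after adjustment. Without thinning, at each cell's own depth, Kit was seen in 54.4% ± 10.6 against 31.1% ± 3.95, a difference of 23.3 points (exact permutation p = 0.0286, the smallest possible, and 0.0857 adjusted), higher in 4 of 4 pairs. Irf8 was then at 19.4% ± 3.02 against 45.3% ± 17.1 (same p values).

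Whether the cells differed by organ was tested over 13 samples with at least 10 such cells: 8 of bone against brain positive 1, brain negative 1 and 4, and liver positive 3 and negative 3. Of 9866 genes 16 passed, all lower in bone (0.162%), and 27 with the block (3 higher and 24, or 0.243%, lower). The samples did not overlap in 17 genes (0.172%). The count was 6 without brain negative sample 1, and 0 by edgeR without brain positive sample 1, where 282 genes had an unadjusted p under 0.05. The liver negative sample had 12 cells with a median of only 3606 UMIs.

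Many genes lower in bone were immediate early genes, which respond fast and for a short time to growth factors and stress. Of 16 stress and immediate early genes 7 were lower in bone, 0 were higher and all 16 had a log2 fold change below 0 (median -1.37, all genes 0.01). With the block 10 were lower. Fos, a subunit of the AP-1 transcription factor, had 172, 377, 79.0 and 109 CPM in bone positive and 248, 370.2, 195 and 169.6 CPM in bone negative samples. It had 1122, 1141 and 1063 CPM in brain positive 1, negative 1 and negative 4, and 392 and 669.7 CPM in liver positive 3 and negative 3 (-2.0, SE 0.31, edgeR FDR 0.00785). The brain samples were far above bone, and liver positive 3 only just above the highest bone sample.

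Its partner Jun had 161, 61.6, 46.8 and 106 CPM in bone positive and 199, 92.0, 112 and 208 CPM in bone negative samples, against 536, 610.1, 368, 281 and 706 CPM in the other samples in the same order (-1.92, SE 0.27, edgeR FDR 0.0037). Dusp1, a phosphatase that turns off MAP kinases, ranged from 22.6 to 74.3 CPM in bone against 81.1, 104, 145, 93.6 and 353 CPM (-1.58, SE 0.27, FDR 0.0125). Tsc22d3, a glucocorticoid-induced gene, ranged from 25.7 to 60.4 against 63.3 to 144 CPM (-1.15, SE 0.18, FDR 0.00831), and Rhob, a small GTPase, from 58.3 to 79.9 against 91.1 to 145 CPM (-0.74, SE 0.12, FDR 0.0121). Bone and the other organs did not overlap in Fos, Jun, Dusp1, Tsc22d3 or Rhob, which the rule that named them asked for. Without brain positive sample 1 none of the 5 passed (FDR 0.126, 0.0621, 0.0775, 0.126 and 0.126), while their log2 fold changes were -1.71, -1.71, -1.68, -1.05 and -0.72.

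Klf2 (-1.46, FDR 0.00831), Zfp36 (-1.54, FDR 0.0276), Ier2 (-1.05, FDR 0.0271), Atf3 (-1.95, FDR 0.00785) and the chemokine Ccl3 (-2.03, FDR 0.0037) were lower in bone with overlapping samples. Hspa1a, a heat shock protein, was at 348 and 318 CPM in replicate 1 of brain and 0.247 CPM in brain negative 4, with 1.30 to 22.7 CPM in bone. Cx3cr1, a receptor abundant in microglia and also made by monocytes, had 193 and 89.6 CPM in brain replicate 1 against 4.70 CPM in brain negative 4 and 1.09 to 18.5 CPM in bone. The T cell receptor gene Trbc2 ranged from 0 to 1.95 CPM in bone and from 2.53 to 9.05 CPM elsewhere (-2.24, SE 0.38, edgeR FDR 0.0125), and did not pass with the block (FDR 0.0712) or without brain positive sample 1 (0.160). The other calls between organs were also lost without that sample. In liver negative 3 the macrophage list summed to 905 CPM and the B cell list to 262 CPM, against at most 359 and 168 CPM in bone. The part of RNA from neighbouring cells in these differences was not tested.

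**Figure D5:**
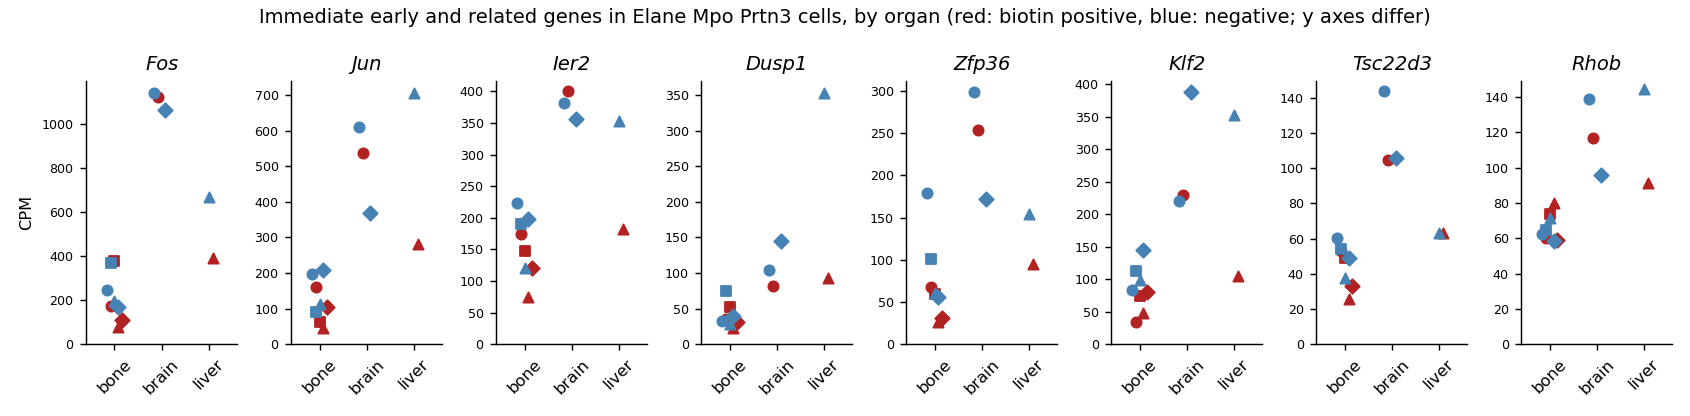
Level (CPM) of 8 genes in Elane Mpo Prtn3 cells of bone, brain and liver, each point 1 sample with at least 10 such cells, positive in red and negative in blue, with shapes for replicate numbers. For Fos and Jun all 5 brain and liver samples lie above the 8 bone samples, whereas Klf2, Ier2 and Zfp36 overlap.

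The granule programme gave no call between organs. Ctsg had 3086, 3311 and 2516 CPM in brain positive 1, negative 1 and negative 4, and 2847 and 2615 CPM in liver positive 3 and negative 3, all within the bone range of 2200.1 to 4326 (0.09, SE 0.14, edgeR FDR 1.00). Of 14 secondary granule genes 0 passed, although all 14 had a log2 fold change above 0 (median 0.36). Irf8 did not pass either (-0.54, SE 0.22, FDR 1.00). Brain positive 1, at 164 CPM, was above the bone positive samples (44.9 to 67.2 CPM), while liver positive 3 had 54.4 CPM. Brain negative 1 and 4, at 221 and 172 CPM, lay within the bone negative range of 120.3 to 233 CPM, and liver negative 3, at 118 CPM, just under it. Per cell after thinning, Irf8 was seen in 26.5% of cells in brain positive 1 (9 of 34), 24.0% in brain negative 1 and 23.8% in brain negative 4, and Mki67 in 52.9%, 44.7% and 41.6%. Of T cells of the same samples thinned alike, Irf8 was seen in 0 of 8, 1 of 70 (1.43%) and 2 of 188 (1.06%).

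A fit of the sort over all 13 samples, with tissue as a term, gave 230 of 9707 genes (2.37%), 63 higher (0.649%) and 167 lower (1.72%) in the positive cells, and 991 with the block (10.2%). It shares its bone samples with the fit above and is no separate evidence. Of 12 monocyte precursor genes 9 fell and 0 rose (median -1.17), and of 12 primary granule and protease handling genes 5 rose and 1 fell (0.40). Without bone positive sample 3 the count of all genes was 77, and without bone negative sample 2 it was 146. Of the 5 primary granule and protease handling genes that rose, Nkg7 passed in all 17 alternatives. Cst7, Prss57, Ms4a3 and Srgn were lost without bone positive sample 3. The sort could not be tested in brain alone at this minimum of cells (1 positive against 2 negative samples). With at least 5 cells per sample (2 against 3) edgeR called 0 of 8047 genes, with 245 at an unadjusted p under 0.05.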

How the data were processed

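The authors deposited raw UMI counts per gene and barcode, written by cellranger 6.1.2 for the 32 intracardiac samples and 7.1.0 for the pooled IIA matrix, per the file headers. The submitters' processing notes name Cell Ranger, Seurat and mm10. For annotation and intron counting the sources used here give nothing. Per the labels, samples were multiplexed with CellPlex (3′ reads) or TotalSeqC (5′ reads), so levels are not compared across the experiments. Hashtags were matched to the deposited sample list by number. An IIA cell was assigned to its top hashtag if that had 10 or more counts, 3 or more times those of the next one, which held for 22685 of 26666 barcodes.

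Members and gene lists were chosen with earlier results of these data known. UMIs of member cells were summed per sample (at least 10 cells) and tested with edgeR 4.0.16 in R 4.3.3 (filterByExpr, TMM, quasi-likelihood, Benjamini-Hochberg over all genes tested). The steps were tested on simulated data. Shares were compared by exact permutation (scipy 1.17.1). Doublets were kept and scored with Scrublet in scanpy 1.11.5, and the top 5% of each sample left out as an alternative. Thinning drew 2000 UMIs per cell and left out 6 members below that. Replicates are separate samples in the labels, which name no mice, so p-values measure the spread between samples.

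In bone, samples of equal replicate number deviated together over genes (r = 0.237, 0.385, 0.455 and 0.493 for the 4 pairs, against -0.308 to 0.00935 for unequal numbers), so the numbers were taken to pair them. In the IIA samples they did not (-0.0520 to 0.220).

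Genes were named by rule: the 4 markers, the 10 highest and 10 lowest log2 fold changes per fit among genes that passed with samples not overlapping (leaving out mt-, Rpl, Rps, Gm, Rik, haemoglobin and immunoglobulin genes), list members that passed or led in level, the 20 leading genes by fold, and the readout genes. For genes named by fold, the lack of overlap was a condition and not a result. Pf4, Kit in bone, Cx3cr1 and Klf2 outside bone, and the Ctsc and Vcan values in IIA, were added after values were seen. Gene positions are from GENCODE vM21 and promoters from RefSeq.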

Additional observations from a re-analysis of the deposited data

Results flagged for a closer look

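Among 106 groups of 4 to 6 samples examined, 12 had 1 sample far from the others by Dixon's criterion, where chance flags about 1 in 20 groups. Shares of Elane Mpo Prtn3 cells stood out in brain positive sample 1 (6.16%, next 0.747%) and in liver positive sample 3 (2.69%, next 0.328%). In bone positive sample 3, Fcnb was seen in 40.5% of cells (next 50.0%) and Rhoj reached 16.3 CPM (next 10.4).

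In bone negative samples 1 value was high for Klf4 (210.4 CPM, next 90.5), Lgals3 (980.1, next 363) and Irf5 (71.1, next 24.3), each in sample 1, for Ctsg (3008, next 2283), and for the little described genes Zfp141 (12.7, next 8.81) and Ganc (16.6, next 12.6). In IIA positive samples it was high for Ms4a4c (5.30 CPM, next 1.42) and Lsp1 (34.6, next 19.8).

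The positive minus negative difference of the share differed between bone and the other tissues by 11.5 points (exact permutation p = 0.00330, and exact sign-flip p = 0.125 within the 4 replicate numbers, the smallest possible). This was not tested on a relative scale.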

How the results depend on the processing

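Limits come from few cells in many samples (13 of 32 had at least 10), from 4 samples per group, and from unequal depth, above all in IIA. Without bone positive sample 3 or brain positive sample 1 several counts drop. Among named genes and lists, 2941 alternative values kept direction and side of the threshold, 386 lost the call, 7 gained it and none changed sign.

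The liver share difference turned to -0.680 points against these cells plus Ltf, Camp and Ngp cells, to -0.598 on the log2 scale, and ranged from -0.339 to 0.559 with 1 sample left out. The brain difference ranged from -2.66 to 0.290, the bone difference from 3.96 to 15.2. Mki67 in bone turned to 1.57 points unthinned and 0.252 without top doublet scores, and ranged from -2.94 to 1.71 with 1 sample left out. The Ltf, Camp and Ngp sum ranged from -2.21 to 8.26. The cause of these turns was not tested. With the replicate block the negative sort difference of bone from other tissues (4.47 points) and that of the biotin difference (11.5 points) no longer passed (exact sign-flip p = 0.25 and 0.125).

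Genes called in bone were 243 by DESeq2 1.42.0, 301 without a filter on low counts, 1214 with the replicate block, 46 at a minimum of 3 UMIs, 158 without top doublet scores, 41 in cells of 20000 to 50000 UMIs (34 shared), and 14 to 107 with 1 sample left out. Over all tissues they were 363, 623 and 991 in the same order of the first 3 settings, 393 with at least 5 cells, and 77 to 283 with 1 sample left out. Bone against other organs gave 81 without the filter, 27 with the replicate block and 0 to 23 with 1 sample left out. IIA counts stayed between 1300 and 2121 under every alternative, with 1708 under the replicate block and 1622 by DESeq2; the IIA share had a sign-flip p of 0.0313 by pairing, and its difference ranged from 19.4 to 30.6 points. The depth window, IIA samples left out, thinned IIA and cross-tissue shares, the Pf4 samples left out, and the replicate block across tissues were chosen after seeing the data.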
